A study of Oryza sativa with 12 samples.

Results

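The genes described here were plainly transcribed in wild-type rice culms and next to silent in culms of a double mutant. They were chosen by measured values: an FPKM (a fragment count scaled to gene length and library size) below 1 in each of 3 double-mutant libraries and at least 10 in each of 3 wild-type libraries. Of 55986 genes in the table, 79 met both limits, and 1 further locus that met them, LOC_Os10g36848, was left out by name. The wild-type limit alone was met by 7496 genes, and the 7417 of these that were not chosen are called the other wild-type genes below. Because the double mutant and the wild type chose the members, the difference between those groups is given without a test, and the open question is what the single mutants did.

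The 12 libraries, in 4 groups of 3, held poly(A) RNA from the culm (stem) of the japonica rice cultivar Zhonghua 11, taken at heading. The double mutant, labelled TAC4L/TAC4-KO and called double-KO here, was set beside TAC4-KO, TAC4L-KO and the wild type (WT). The titles say knockout and the genotype field says knockdown; the labels give neither the age of the plants nor the alleles nor the number of lines. They do not tell whether each replicate was its own plant, and the spread behind the p-values may therefore be technical. TAC4 is a nuclear protein known for setting tiller angle through auxin, and TAC4L, by its name, is its relative. TAC4 itself (LOC_Os02g25230) averaged 14.98 ± 1.68 FPKM in double-KO, 11.4 ± 2.21 in TAC4-KO, 8.8 ± 0.893 in TAC4L-KO and 5.89 ± 1.31 in WT (SD, n = 3 each), and TAC4L (LOC_Os04g19140) 0.433 ± 0.0825, 0.378 ± 0.122, 0.533 ± 0.196 and 0.711 ± 0.228 FPKM in the same groups. The TAC4 level was thus above WT in both lines said to lack TAC4, and in TAC4L-KO as well. The cause of this rise was not tested. A small edit need not lower the amount of transcript, so these levels do not check the labels, and groups are named as labelled. Relative sequencing depth, read from the steps between low values, spanned 2.58-fold, with WT replicate 1 the shallowest and double-KO replicate 2 the deepest.

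The members can mostly be named by locus only. The table pairs no locus with a gene name, and 0 of 79 member identifiers matched the rice gene reference used here. Among 287 loci of 27 hand-made lists (cellulose synthases, lignin, hormone, starch, photosynthesis, flowering, defence and other genes, paired with their names from published rice nomenclature), 122 met the WT limit and 1 was a member: LOC_Os03g44380, listed as NCED3. Only its name and chromosome could be checked: the reference holds a gene with the synonym NCED3 on chromosome 3. NCED enzymes cleave a carotenoid precursor in the committed step of the synthesis of abscisic acid, the hormone that rises in drying tissue and switches on dehydrins, the protective proteins of dehydration. None of the 3 secondary wall cellulose synthases, 15 lignin loci, 18 auxin loci or 10 jasmonate loci that met the WT limit was a member. Members were only 79 of all 7496 genes that met this limit. At that share, lists of such sizes would hold few members or none, so their absence says little.

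Libraries of the single mutants stood apart from their own replicates, and this bears on every result below. In TAC4L-KO the members' summed level was 1756, 1203 and 544.4 FPKM in replicates 1 to 3, and their median level 14.9, 7.77 and 2.98 FPKM. Replicate 1 thus lay nearest to WT, with 54 of 79 members at 10 FPKM or more, and replicate 3 farthest from it, with 17. In TAC4-KO the sums were 382.9, 445.7 and 176.6 FPKM, and 9, 9 and 4 members reached 10 FPKM. The range within a group, taken per gene as (highest + 1)/(lowest + 1), had a median of 4.0 among members in TAC4L-KO and 2.3 in TAC4-KO, against 1.34 and 1.3 among the other wild-type genes.

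**Figure D1:**
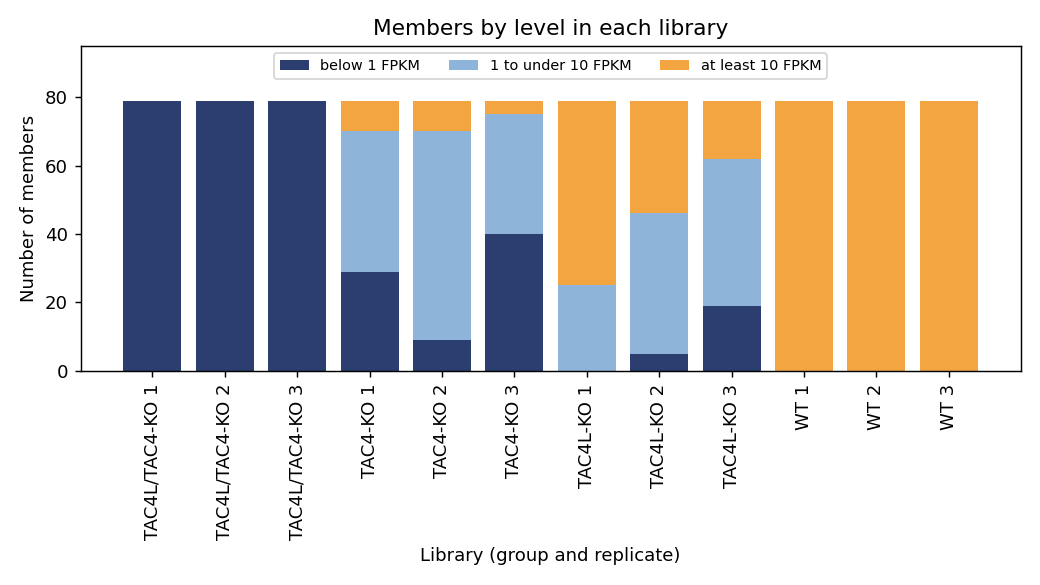
Number of the 79 members (vertical axis) below 1 FPKM, from 1 to under 10 FPKM and at 10 FPKM or more in each of the 12 libraries (horizontal axis). The rule fixed the 3 bars at each end; between them 9, 9 and 4 members reached 10 FPKM in the TAC4-KO libraries and 54, 33 and 17 in the TAC4L-KO libraries.

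In double-KO the members were close to undetected. Their summed level was 29.62, 30.19 and 26.31 FPKM in the 3 double-KO libraries, against 2903, 2576 and 4351 FPKM in WT replicates 1 to 3. As a share of all FPKM in a library this was 0.00397% to 0.00467% in double-KO and 0.41% to 0.696% in WT. Between 4 and 7 members were listed at 0 in a double-KO library. These values follow from the rule and are given as a description. Fewer cells of a type and less RNA per cell cannot be told apart in such bulk samples.

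The most abundant members show how WT libraries differed. LOC_Os07g38130, the highest by WT mean, stood at 0.958, 0.463 and 0.422 FPKM in double-KO and at 199, 180 and 125 FPKM in WT. It was evenly high in WT, as was LOC_Os12g07030, with 0.565, 0.727 and 0.503 FPKM in double-KO and 126, 96.0 and 122 FPKM in WT. LOC_Os01g73200 was of another kind, with 0.15, 0.122 and 0.498 FPKM in double-KO and 11.6, 29.6 and 339 FPKM in WT. LOC_Os06g35520, at 0.271, 0.0552 and 0.0901 FPKM in double-KO, likewise stood at 25.4, 25.2 and 302 FPKM in WT. Their WT means come mostly from replicate 3.

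Such unevenness was common among the members. The highest WT library exceeded the lowest by a median of 2.4-fold over the members and 1.5-fold over the other wild-type genes. A range of 5-fold or more was seen in 8 of 79 members (10.1%) and in 0.836% of the other wild-type genes. WT replicate 3 was the highest WT library for 7 of those 8. It was so for 37 of 79 members in all, and for 36.9% of the other wild-type genes. NCED3 (LOC_Os03g44380) was the exception among the 8: its 99.2 FPKM fell in WT replicate 1, beside 19.7 and 14.2 FPKM in WT replicates 2 and 3, with 0.838, 0.519 and 0.17 FPKM in double-KO.

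**Figure D2:**
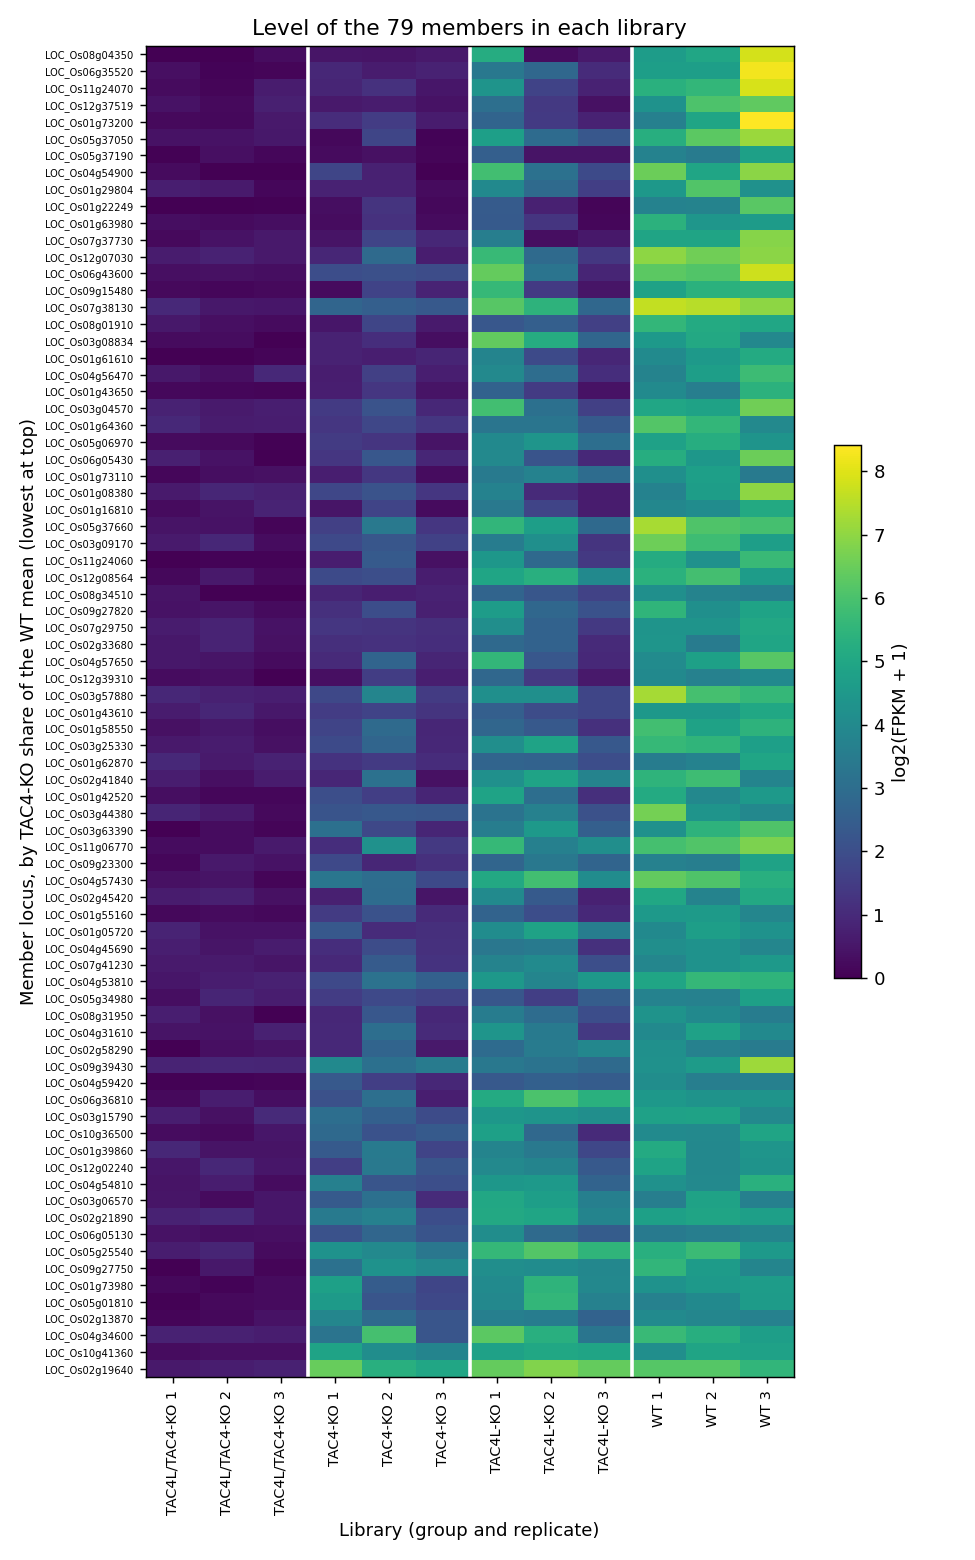
Level of each of the 79 members (rows, ordered by the TAC4-KO share of the WT mean, lowest at the top) in each library (columns), as log2(FPKM + 1). TAC4-KO columns are dark for most rows, TAC4L-KO replicate 1 is light for most, and LOC_Os02g19640 and LOC_Os10g41360 at the bottom are light in all 6 single-mutant columns.

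The single mutants neither kept nor lost most members by the limits of the rule. With kept meaning at least 10 FPKM in each of the 3 libraries and lost meaning below 1 FPKM in each, TAC4-KO kept 2 members and lost 7, leaving 70 in between. TAC4L-KO kept 16, lost 0 and left 63 in between. Of all 7496 genes that met the WT limit, 86.1% were kept and 0.12% lost in TAC4-KO, and 89.9% were kept and 0.0% lost in TAC4L-KO. The 7 members lost in TAC4-KO were 7 of the 9 genes lost there. At least 1 FPKM in each library was reached by 36 members (45.6%) in TAC4-KO and by 60 (75.9%) in TAC4L-KO. Of the other wild-type genes, 99.5% and 99.8% reached it in these lines.

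These counts hang on single libraries. Each needs every library of the group to pass, so leaving 1 out can only raise a count or leave it unchanged. The rise differed with the library left out. Without TAC4L-KO replicate 3, TAC4L-KO kept 30 members, and without its replicate 1 it lost 5. Without TAC4-KO replicate 2, TAC4-KO lost 27 members, and without its replicate 3 it kept 4.

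As a share of the WT mean, the median member stood at 1.02% in double-KO, 7.37% in TAC4-KO and 33.1% in TAC4L-KO. For the other wild-type genes the medians were 87.4%, 94.4% and 101%. The shares of single members ran from 0.423% to 81.8% in TAC4-KO and from 2.12% to 231% in TAC4L-KO. Single members' shares are uncertain: leaving out 1 library moved the share by over 1.5-fold for 52 of 79 members in TAC4-KO and for 47 in TAC4L-KO. The lowest share of each line rests on WT replicate 3, without which LOC_Os08g04350 stood at 1.49% rather than 0.423% in TAC4-KO and LOC_Os01g73200 at 13.02% rather than 2.12% in TAC4L-KO. In TAC4-KO 50 members lay under 10% of the WT mean and 0 at or above it; in TAC4L-KO 10 lay under 10% and 9 at or above the WT mean. Within TAC4L-KO the median share was 52.1%, 26.7% and 8.44% in replicates 1 to 3, and within TAC4-KO 5.39%, 9.99% and 3.41%. By this median share, replicate 3 of TAC4L-KO fell among the TAC4-KO libraries. By the members' summed level, at 544.4 FPKM, it lay above all of them (176.6 to 445.7 FPKM).

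The order of the group means was the same for most members, with double-KO lowest, then TAC4-KO, then TAC4L-KO, and WT highest. It held for 69 of 79 members (87.3%) and for 19.4% of the other wild-type genes. The rule fixed double-KO below WT. It also favoured single-mutant means above double-KO, which it held below 1 FPKM, and below WT, which it required to be high. The other wild-type genes were under no double-KO limit. The contrast with their 19.4% therefore cannot tell a graded fall from the effect of the rule. The rule set no limit on the order of TAC4-KO and TAC4L-KO between themselves. TAC4L-KO averaged at or above WT in 9 members and TAC4-KO in 0. TAC4-KO averaged below TAC4L-KO in 78 of 79 members, against 60.8% of the other wild-type genes. The one exception was LOC_Os09g39430, at 14.8, 7.63 and 10.3 FPKM in TAC4-KO and 9.34, 8.3 and 6.51 FPKM in TAC4L-KO. The contrast of 78 members with 60.8% again sets members against genes under no double-KO limit. Members also shared their high and low libraries, so the 78 are not separate observations.

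**Figure D3:**
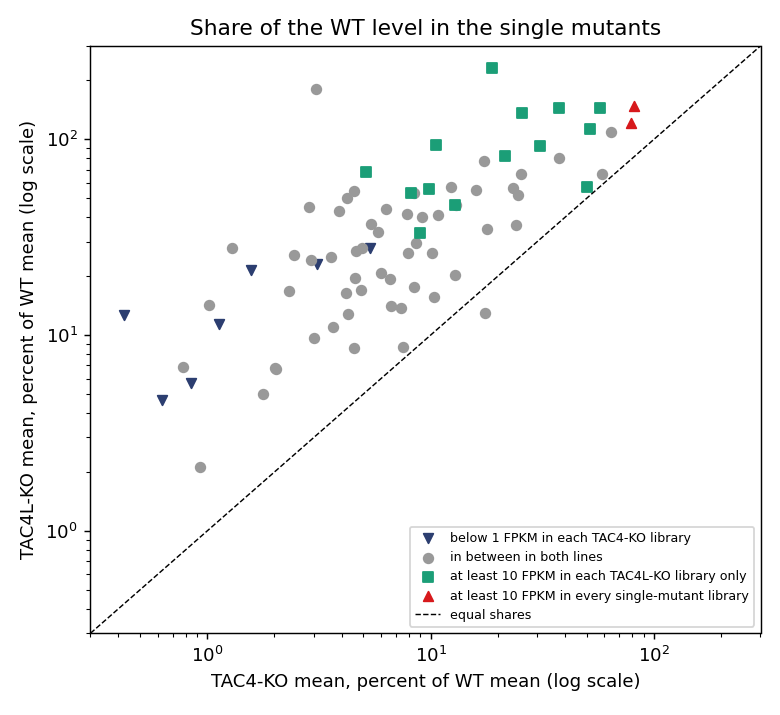
Mean level in TAC4-KO (horizontal axis) and in TAC4L-KO (vertical axis) of each member as a percent of its WT mean, both on log scales, with the dashed line marking equal shares. Of the 79 points 78 lie above the line; the 2 triangles pointing up are the members at 10 FPKM or more in every single-mutant library.

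TAC4-KO against TAC4L-KO is the only comparison here fitted without the libraries of the rule, which entered only the filter on low values, a mean over all 12. It was tested with limma on log2(FPKM + 1) in those 6 libraries over the 19184 genes averaging 1 FPKM or more, the fold changes below being on that scale. At an adjusted p under 0.05, 74 genes (0.386%) were called. Among the members 1 was called, lower in TAC4-KO, against 0.136% of all tested genes called lower, and 0 were called higher, against 0.25%. The median change of the members was -1.43, against -0.09 over all tested genes. The TAC4-KO libraries lay wholly below the TAC4L-KO libraries in 28 members (35.4%), against 19.0% of all tested genes and 19.8% of the other wild-type genes. They lay wholly above in 0 members, against 11.6% of tested genes. Here too the members, chosen by a double-KO limit, are set against genes that were under none.

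All members passed the filter on low values through their WT level, so members low in both single mutants are among those tested. The counts of calls moved strongly with the libraries. Without TAC4L-KO replicate 3, 1212 genes and 24 members were called, the members all lower in TAC4-KO. Without TAC4L-KO replicate 1 or 2 or TAC4-KO replicate 1 no gene was called, without TAC4-KO replicate 3 there was 1, and without TAC4-KO replicate 2 there were 116, 4 of them members. With all 12 libraries in 1 fit, whose spread the rule narrows for the members, 584 genes and 16 members were called.

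The called member was LOC_Os01g73110. It stood at 0.642, 1.57 and 0.203 FPKM in TAC4-KO and at 9.83, 12.2 and 6.93 FPKM in TAC4L-KO, a log2 change of -2.6 (SE 0.318, limma adjusted p = 0.046). The groups were far apart, and in 3 of 3 TAC4-KO libraries the level lay below every TAC4L-KO library. Its double-KO levels were 0.114, 0.244 and 0.313 FPKM, and its WT levels 17.1, 26.1 and 10.01 FPKM, the last just inside the WT limit. The call was lost with a pseudocount of 0.1, without a filter, with a replicate block and without TAC4L-KO replicate 1 or 2 or TAC4-KO replicate 1 or 3, with adjusted p = 0.0575 to 0.206.

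The members that differed most between the single mutants included some at or above WT in TAC4L-KO. Others averaged below WT there, among them LOC_Os12g08564 (log2 change -3.23, 67.9% of WT), LOC_Os02g41840 (-2.81, 53.4%) and LOC_Os05g06970 (-2.74, 50.03%), none of which passed. LOC_Os06g36810 had 3.25, 7.43 and 0.629 FPKM in TAC4-KO and 34.4, 64.9 and 39.1 FPKM in TAC4L-KO (log2 change -3.55, SE 0.577, limma adjusted p = 0.058). Its WT level was even, at 21.6, 18.9 and 19.5 FPKM, so that every TAC4L-KO library lay above WT and every TAC4-KO library below it. Against WT the change in TAC4-KO was -2.43 (SE 0.503, limma adjusted p = 0.0088), and that in TAC4L-KO, 1.11 (SE 0.503, limma adjusted p = 0.2), did not pass. In double-KO it was at 0.16, 0.587 and 0.24 FPKM.

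LOC_Os03g08834 showed the largest change of any member, with 0.745, 1.16 and 0.23 FPKM in TAC4-KO and 83.3, 36.2 and 5.83 FPKM in TAC4L-KO (-4.06, SE 0.844, limma adjusted p = 0.077). Its TAC4L-KO libraries ranged from above to below WT, which was at 22.4, 32.8 and 14.3 FPKM. LOC_Os05g25540 was intermediate in TAC4-KO, at 18.7, 14.5 and 9.1 FPKM, and at 47.6, 71.1 and 44.5 FPKM in TAC4L-KO (-1.9, SE 0.29, limma adjusted p = 0.054), with 38.1, 51.8 and 22.6 FPKM in WT. LOC_Os03g15790 had 7.2, 4.95 and 2.75 FPKM in TAC4-KO and 20.8, 19.4 and 16.97 FPKM in TAC4L-KO (-1.82, SE 0.283, limma adjusted p = 0.055), where TAC4L-KO overlapped WT at 27.3, 27.5 and 14.6 FPKM. The differences of LOC_Os06g36810, LOC_Os03g08834, LOC_Os05g25540 and LOC_Os03g15790 did not pass the threshold.

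Only a few members were near their WT level in both single mutants. LOC_Os02g19640 had 0.505, 0.584 and 0.702 FPKM in double-KO, 86.6, 38.6 and 30.3 FPKM in TAC4-KO, 84.0, 112 and 85.0 FPKM in TAC4L-KO, and 71.9, 72.7 and 45.5 FPKM in WT. TAC4-KO and WT overlapped, and every TAC4L-KO library exceeded every WT library. LOC_Os10g41360 had 0.226, 0.259 and 0.267 FPKM in double-KO, 28.2, 16.6 and 12.7 FPKM in TAC4-KO, 27.3, 30.9 and 29.3 FPKM in TAC4L-KO, and 16.7, 29.0 and 26.9 FPKM in WT. Here both single mutants overlapped WT, and all 9 libraries outside double-KO lay at 12.7 FPKM or more. These 2 loci were the ones kept in every single-mutant library. Against WT, LOC_Os02g19640 changed by -0.40 (SE 0.363) in TAC4-KO and 0.57 (SE 0.363) in TAC4L-KO, and LOC_Os10g41360 by -0.36 (SE 0.294) and 0.30 (SE 0.294), none of which passed in a limma fit of the 9 libraries outside double-KO.

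In that fit 70 of 79 members were called lower in TAC4-KO against WT and 0 higher, where 30.5% of all tested genes were called, 14.4% lower and 16.1% higher. In TAC4L-KO against WT 9 members were called lower and 0 higher, where 1.61% of tested genes were called, 0.954% lower and 0.652% higher. The WT libraries chose the members for being high, and so these counts are descriptions. The median change of the members was -3.34 in TAC4-KO, with all 79 negative, and -1.85 in TAC4L-KO, with 72 negative. The TAC4-KO libraries lay wholly below WT in 72 members and those of TAC4L-KO in 39, against 28.6% and 14.1% of the other wild-type genes. The 2 comparisons share their WT libraries.

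The number called in TAC4L-KO depended on 1 library most of all: without TAC4L-KO replicate 1 it was 34. Without TAC4L-KO replicate 2 or 3 it was 2 or 1, without WT replicate 1 or 3 it was 4 or 5, and with a replicate block it was 5. In TAC4-KO the count stayed between 56 and 70 whichever library was left out.

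Beside the 2 loci above, 7 members were not called in TAC4-KO against WT. LOC_Os04g34600 had 8.48, 60.5 and 3.66 FPKM in TAC4-KO, 77.0, 38.1 and 8.63 FPKM in TAC4L-KO and 50.6, 37.3 and 25.2 FPKM in WT, with 1 TAC4-KO library above all of WT and the other two below. LOC_Os05g01810 had 23.0, 3.67 and 2.53 FPKM in TAC4-KO, 14.3, 46.9 and 11.9 FPKM in TAC4L-KO and 11.9, 14.98 and 23.8 FPKM in WT. LOC_Os01g73980 had 26.5, 4.49 and 2.35 FPKM in TAC4-KO, 15.4, 43.3 and 14.2 FPKM in TAC4L-KO and 18.4, 21.8 and 24.2 FPKM in WT. In both, the high TAC4-KO library was replicate 1 and the high TAC4L-KO library was replicate 2.

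LOC_Os02g13870 was at 13.7, 6.42 and 3.69 FPKM in TAC4-KO, 11.4, 10.5 and 5.25 FPKM in TAC4L-KO and 15.3, 13.6 and 11.9 FPKM in WT. LOC_Os09g27750 was at 7.74, 18.6 and 14.7 FPKM in TAC4-KO, 16.8, 16.1 and 14.01 FPKM in TAC4L-KO and 44.9, 23.7 and 13.3 FPKM in WT. Both were above 3 FPKM in all 6 single-mutant libraries and below 1 FPKM in all double-KO libraries. LOC_Os10g36500 and LOC_Os09g39430 averaged 23.3% and 17.6% of WT in TAC4-KO, the second with a WT value of 145 FPKM in replicate 3 beside 18.1 and 23.5 FPKM, without which its share was 52.5%. None of the 9 uncalled members was called in TAC4L-KO against WT either.

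**Figure D4:**
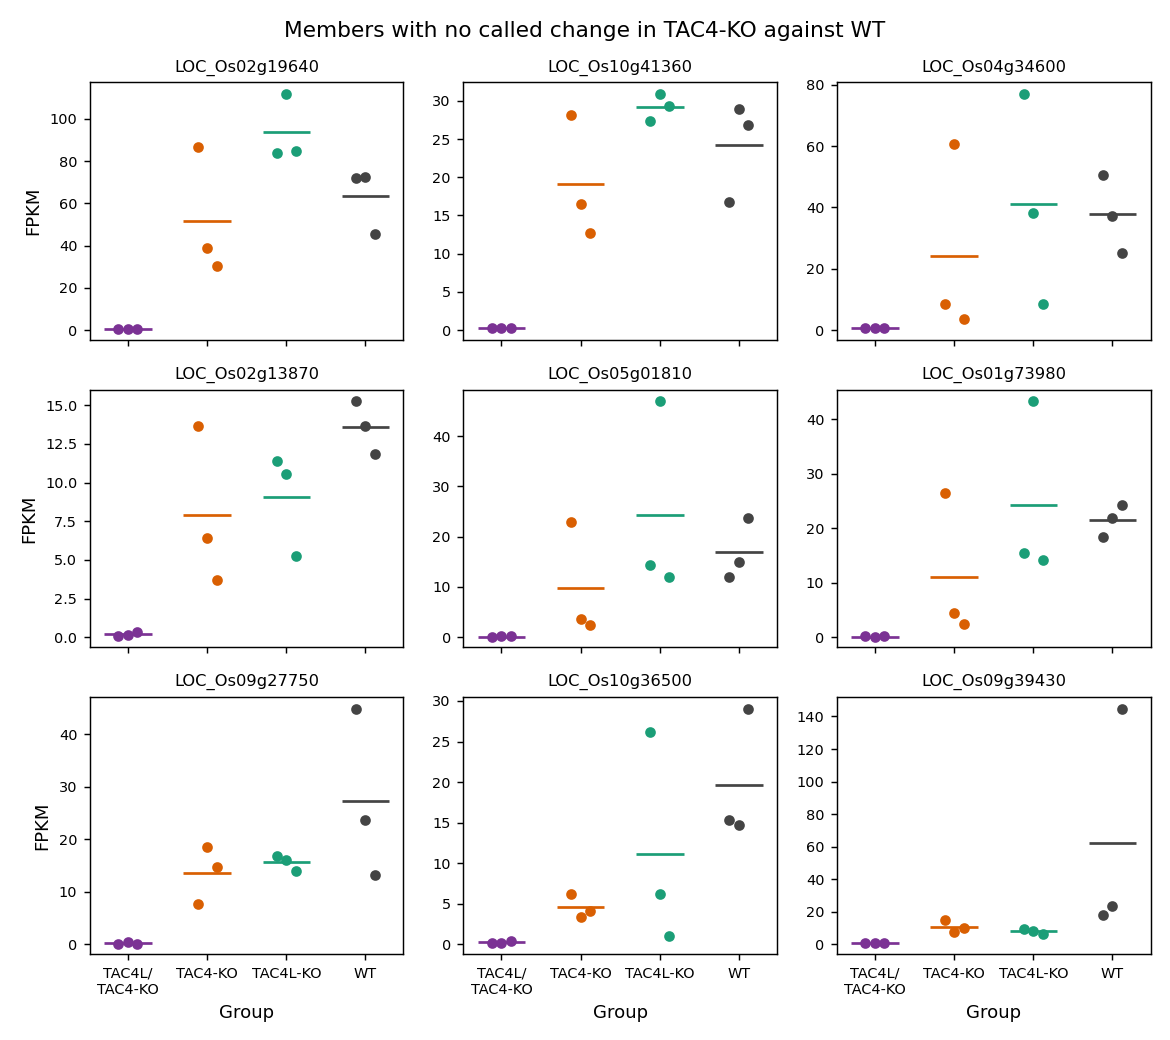
FPKM of the 9 members not called in TAC4-KO against WT (1 panel each) in the 4 groups; points are libraries and lines are group means. In each panel the 3 double-KO points lie below 1 FPKM, whereas LOC_Os02g19640 and LOC_Os10g41360 reach 10 FPKM in every other library.

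At the other end, 7 members were below 1 FPKM in every TAC4-KO library as well. LOC_Os08g04350 was at 0.376, 0.345 and 0.496 FPKM in TAC4-KO, against 24.2, 30.1 and 233 FPKM in WT. In TAC4L-KO it split, with 35.9 FPKM in replicate 1 and 0.206 and 0.501 FPKM in replicates 2 and 3. LOC_Os12g37519 was at 0.502, 0.553 and 0.338 FPKM in TAC4-KO, 7.37, 1.65 and 0.301 FPKM in TAC4L-KO and 18.5, 65.1 and 81.1 FPKM in WT.

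LOC_Os05g37190 was at 0.191, 0.286 and 0.0756 FPKM in TAC4-KO, 4.88, 0.349 and 0.35 FPKM in TAC4L-KO and 12.3, 10.3 and 26.2 FPKM in WT. The other 4 were LOC_Os06g35520, LOC_Os01g29804, LOC_Os01g61610 and LOC_Os08g34510, with 0.177 to 0.895 FPKM in TAC4-KO and 0.888 to 14.8 FPKM in TAC4L-KO. All 7 were higher in TAC4L-KO replicate 1 than in any TAC4-KO library.

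Other abundant members were low in TAC4-KO and spread widely in TAC4L-KO. LOC_Os06g43600 was even in TAC4-KO, at 3.0, 3.12 and 2.86 FPKM, while TAC4L-KO spanned WT-like and near-silent levels, at 84.0, 8.33 and 0.828 FPKM, against 78.0, 68.1 and 219 FPKM in WT. LOC_Os05g37660 had 1.99, 9.66 and 1.51 FPKM in TAC4-KO, 45.3, 25.4 and 6.36 FPKM in TAC4L-KO and 158, 66.7 and 60.6 FPKM in WT. LOC_Os03g57880 had 2.54, 13.1 and 1.73 FPKM in TAC4-KO, 17.2, 17.1 and 2.38 FPKM in TAC4L-KO and 154, 59.4 and 47.2 FPKM in WT. In all 3 of these loci every TAC4-KO library lay below every WT library, and replicate 3 was the lowest library of both single mutants.

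Among the lowest shares in TAC4L-KO, LOC_Os01g22249 was at 0.252, 1.41 and 0.133 FPKM in TAC4-KO, 4.29, 0.69 and 0.0838 FPKM in TAC4L-KO and 12.3, 12.5 and 75.8 FPKM in WT. LOC_Os07g37730 was at 0.349, 2.32 and 0.912 FPKM in TAC4-KO, 11.07, 0.24 and 0.466 FPKM in TAC4L-KO and 29.2, 28.9 and 117 FPKM in WT. In both, 2 of 3 TAC4L-KO libraries were as low as double-KO libraries are by the rule, below 1 FPKM, and the high WT library was replicate 3.

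NCED3 (LOC_Os03g44380) fell in between in both lines, at 3.51, 3.95 and 3.75 FPKM in TAC4-KO and 8.25, 11.8 and 3.2 FPKM in TAC4L-KO, or 8.43% and 17.5% of its WT mean. These shares rest on WT replicate 1: without it they were 22.1% and 45.8%. The TAC4-KO libraries were alike, and 2 of 3 TAC4L-KO libraries lay above them. All 6 lay below the lowest WT library (14.2 FPKM). The change of TAC4-KO against TAC4L-KO was -0.745 (SE 0.386, limma adjusted p = 0.27) and did not pass.

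Within each single mutant the members shared a high library. In TAC4-KO replicate 2 was the highest library for 55 of 79 members and replicate 3 the lowest for 56. In TAC4L-KO replicate 1 was the highest for 54 and replicate 3 the lowest for 68. Both held for 42 members (highest in TAC4-KO replicate 2 and in TAC4L-KO replicate 1). A smaller set of 12, to which LOC_Os05g01810 and LOC_Os01g73980 belong, was highest in TAC4-KO replicate 1 and TAC4L-KO replicate 2. Among the other wild-type genes TAC4-KO replicate 2 was highest for 39.8% and TAC4L-KO replicate 1 for 37.6%. The replicate numbers come from the labels and are not known to link libraries of different groups.

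Within the single mutants, genes of dehydration moved in the same libraries, as in part did those of the defence list given below. The summed level of the 16 loci of the dehydration list was 101 to 113 FPKM in double-KO. In replicates 1 to 3 it was 415, 916 and 281 FPKM in TAC4-KO and 2130, 1170 and 533 FPKM in TAC4L-KO. In WT replicates 1 to 3 it was 2590, 1800 and 1610 FPKM. As for the members, TAC4-KO replicate 2 and TAC4L-KO replicate 1 were the high libraries of their groups and replicate 3 the low one of both. In WT the order was not shared: replicate 3 had the lowest dehydration sum and the highest member sum (4351 FPKM). All 10 list loci with a WT mean of at least 1 FPKM averaged lower in each mutant than in WT. That limit looks at WT only, which favours lower means in the mutants. Among the other wild-type genes, under their stricter WT limit, 45.3% averaged at or above WT in TAC4-KO and 51.5% in TAC4L-KO. LIP9, a dehydrin, made up 62.9% of the WT sum and SNAC1, a stress-responsive NAC transcription factor, 19.9%; NCED3 is on this list too, and 4, 1, 3 and 1 of its loci were listed at 0 throughout double-KO, TAC4-KO, TAC4L-KO and WT.

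Of the 16 dehydration loci 9 could be tested. Against WT, 7 of them fell in TAC4-KO and 2 in TAC4L-KO by limma, and 0 rose in either, where 14.4% and 0.954% of all tested genes were called lower and 16.1% and 0.652% higher in those lines. The 7 include NCED3, which the rule chose for its high WT values. Between TAC4-KO and TAC4L-KO none passed. SNAC1 changed by -3.66 in TAC4-KO (SE 0.543, limma adjusted p = 0.0032) and by -1.69 in TAC4L-KO (SE 0.543, limma adjusted p = 0.11). LIP9 did not pass in either line, at -1.68 (SE 0.624, limma adjusted p = 0.068) in TAC4-KO and -0.511 (SE 0.624, limma adjusted p = 0.62) in TAC4L-KO.

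The 15 loci of the defence list summed to 5.39 to 25.1 FPKM in double-KO, 9.54 to 55.4 in TAC4-KO, 9.23 to 70.1 in TAC4L-KO and 124 to 173 in WT. The defence sum is mostly 1 gene, the transcription factor gene WRKY71, which held nearly all of it in WT. Of the defence loci, 4, 4, 8 and 4 were listed at 0 throughout double-KO, TAC4-KO, TAC4L-KO and WT. Secondary wall cellulose synthases behaved otherwise: their sum was 38.0 to 92.7 FPKM in double-KO, 501 to 1370 in TAC4-KO, 1010 to 1660 in TAC4L-KO and 598 to 1040 in WT, with TAC4-KO replicate 2 the lowest of its group. Starch genes (21 loci) ran the other way, with 9330 to 10300 FPKM in double-KO, 2300, 1590 and 4670 FPKM in TAC4-KO replicates 1 to 3, 595, 373 and 719 FPKM in TAC4L-KO replicates 1 to 3, and 364 to 411 FPKM in WT. In both single mutants the library with the lowest member sum, replicate 3, had the highest starch sum. At the other end the lines differed. TAC4-KO replicate 2 had the highest member sum and the lowest starch sum. In TAC4L-KO replicate 1 had the highest member sum but replicate 2 the lowest starch sum.

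Markers of other tissue differed less between groups. Floral MADS-box genes (14 loci) summed to 747 to 803 FPKM in double-KO, 586 to 686 in TAC4-KO, 586 to 716 in TAC4L-KO and 346 to 553 in WT. The photosynthesis list (7 loci) gave 6890 to 8750 FPKM in double-KO, 11600 to 13000 in TAC4-KO, 6280 to 7210 in TAC4L-KO and 4090 to 8680 in WT, and the KNOX genes of meristems (5 loci) 127 to 187, 238 to 255, 230 to 348 and 236 to 314 FPKM in the same groups. The part of any of these lists in the members' levels was not tested.

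**Figure D5:**
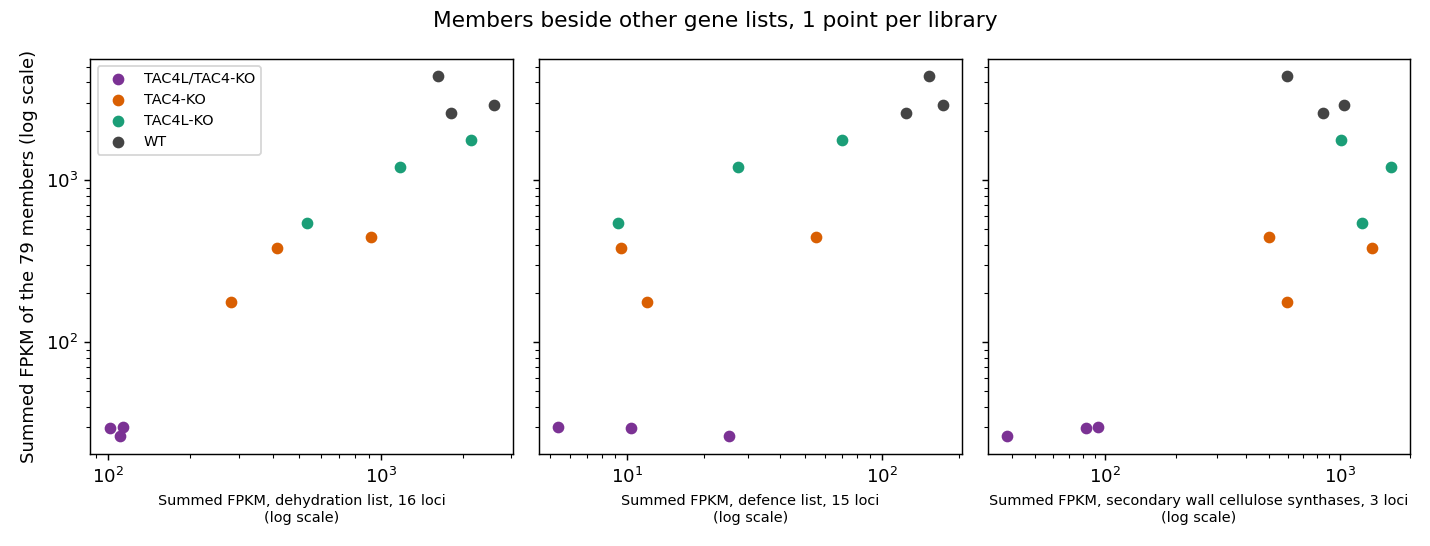
Summed FPKM of the 79 members (vertical axis) against the summed FPKM of the dehydration, defence and secondary wall cellulose synthase lists (horizontal axes), 1 point per library, all axes on log scales. TAC4L-KO replicate 1 (1756 FPKM in members, 2130 FPKM in the dehydration list) lies next to WT, and the double-KO libraries lie lowest on the member axis.

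On the chromosomes, as the locus identifiers give them, the members were spread over all 12. Chromosome 1 held 18, or 1.71% of its genes that met the WT limit, and chromosome 10 held 2, or 0.543%. In the whole table the members were 79 of the 7496 genes that met it. Counting 1 step for each increment of 10 in the locus number, 26 members lay within 100 steps of another member, in 15 neighbouring pairs. The closest pair was LOC_Os11g24060 and LOC_Os11g24070, with no gene of the table between them. LOC_Os11g24060 had 0.609, 4.22 and 0.299 FPKM in TAC4-KO, 21.1, 6.41 and 1.61 FPKM in TAC4L-KO and 35.0, 18.2 and 51.1 FPKM in WT. LOC_Os11g24070 had 0.809, 1.3 and 0.412 FPKM in TAC4-KO, 19.3, 2.25 and 0.751 FPKM in TAC4L-KO and 39.2, 46.8 and 237 FPKM in WT. Both were high in TAC4L-KO replicate 1 and low in its replicate 3; whether they share reads as near-identical copies was not tested.

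Chromosome 4 held 2 runs of 3 members and chromosomes 1 and 5 a run each. The run on chromosome 5 was LOC_Os05g37050, LOC_Os05g37190 and LOC_Os05g37660. Its first member had 0.142, 2.41 and 0.0562 FPKM in TAC4-KO, 26.1, 6.69 and 3.9 FPKM in TAC4L-KO and 38.1, 78.0 and 140 FPKM in WT. The next locus number to it, LOC_Os05g37060, missed the double-KO limit narrowly, with a highest double-KO value of 1.08 FPKM and a WT mean of 278 FPKM. The run on chromosome 1 joined unlike members. In TAC4L-KO, LOC_Os01g73110 stood at 44.7% to 71.04% of WT whichever library was left out, LOC_Os01g73200 at 0.963% to 13.02%, and LOC_Os01g73980 at 68.9% to 137%. The runs on chromosome 4 were LOC_Os04g53810, LOC_Os04g54810 and LOC_Os04g54900, and LOC_Os04g56470, LOC_Os04g57430 and LOC_Os04g57650. Of these LOC_Os04g53810 was the steadiest in TAC4L-KO, at 41.0% to 53.1% of WT whichever library was left out, and LOC_Os04g57650 ranged most widely, at 6.24% without TAC4L-KO replicate 1 and 81.2% without WT replicate 3.

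The limits of the rule cut through a continuum. Just inside the double-KO limit were LOC_Os03g15790, LOC_Os01g62870 and LOC_Os07g38130, with highest double-KO values of 0.993, 0.979 and 0.958 FPKM, and just outside it LOC_Os08g03610, LOC_Os04g36040 and LOC_Os05g37060, with 1.001, 1.01 and 1.08 FPKM. Just inside the WT limit were LOC_Os01g73110, LOC_Os06g05130 and LOC_Os02g58290, with lowest WT values of 10.01, 10.2 and 10.2 FPKM, and just outside it LOC_Os09g24620, LOC_Os09g39850 and LOC_Os01g52514, with 9.81, 9.65 and 9.63 FPKM.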

How the data were processed

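Culm RNA from 12 libraries was measured by RNA-seq. The authors deposited 1 table of FPKM values per gene and library; HISAT2, an aligner, is listed without a version in the submitters' processing notes. How fragments were counted, on which build and annotation, and whether by strand, is not given in the sources used here, so genes that overlap or share reads with near-identical copies remain uncertain. Each column was matched to a sample by the library name in its label; no pair of libraries among 66 was identical.

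The members and gene lists were chosen with earlier results of these data known. The analysis fitted log2(FPKM + 1) with limma 3.58.1 under R 4.3.3, its prior variance following a trend, for genes averaging 1 FPKM or more across libraries, with Benjamini-Hochberg adjustment over all tested genes, and was tested on simulated data. TAC4-KO against TAC4L-KO was fitted on those 6 libraries, and each single mutant against WT on 9, since the rule forces the double-KO values. With 3 libraries against 3, an exact permutation test cannot go below p = 0.1. Read counts were not used; relative depth came from the ratio most often seen between low values of 2 libraries, and no detection floor in FPKM is given.

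Named loci were both targeted genes, list members placed on their chromosome by the reference (ASM3414082v1), the 10 highest by WT mean, those called in TAC4-KO against TAC4L-KO, the 5 highest and 5 lowest shares of WT in each single mutant, 3 on each side of each limit and the longest runs of neighbours. LOC_Os11g24060, LOC_Os12g08564, LOC_Os02g41840, LOC_Os05g06970, the loci lost in TAC4-KO and those not called in TAC4-KO against WT were chosen after their values were seen. No sequences were used here.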

Additional observations from a re-analysis of the deposited data

Results flagged for a closer look

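In LOC_Os06g36810 every TAC4-KO library lay below WT and every TAC4L-KO library above it. Against WT the change was -2.43 in TAC4-KO (limma adjusted p = 0.0088) and 1.11 in TAC4L-KO, which did not pass (limma adjusted p = 0.2). TAC4-KO differed from TAC4L-KO by -3.55 on the log2 scale, which did not pass either (limma adjusted p = 0.058). In LOC_Os01g73110 the log2 change between TAC4-KO and TAC4L-KO was -2.6 and passed (limma adjusted p = 0.046). That call was lost in 7 of 13 alternatives: a pseudocount of 0.1, no filter, a replicate block and 4 omissions of a single library, with adjusted p = 0.0575 to 0.206.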

How the results depend on the processing

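The number of members depends on the limits: 79 became 178 with at least 5 FPKM in WT, 28 with at least 20 FPKM, 39 below 0.5 FPKM in double-KO and 133 below 2 FPKM. It was 75 under median-of-ratios scaling (72 shared) and 61 after quantile normalization (59 shared). Without 1 library it was 87 to 110, an omission that cannot lower it. With limits of 5 and 0.5 FPKM, TAC4-KO kept 5 and lost 2 and TAC4L-KO kept 27; with limits of 20 and 2 FPKM, TAC4-KO kept 1 and lost 19 and TAC4L-KO kept 4. Leaving out 1 library gave 3 to 4 kept and 7 to 27 lost in TAC4-KO, and 16 to 30 kept and 0 to 5 lost in TAC4L-KO. These counts too can only rise or stay when a library is left out. The median share of WT ranged from 4.05% to 8.43% in TAC4-KO and from 16.97% to 39.9% in TAC4L-KO without 1 library. Within 20 identifier steps 12 members (15.2%) had a neighbour, against 98.2% in the denser set of genes that met the WT limit.

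In TAC4-KO against TAC4L-KO, 138 genes were called under median-of-ratios scaling, 584 with all 12 libraries, 0 without a filter and 0 with a replicate block (4781 genes had an unadjusted p under 0.05 in the limma fit as reported). Members called were 3 under median-of-ratios scaling, 2 after quantile normalization, 16 with all 12 libraries, and 0 with a pseudocount of 0.1, without a filter or with a replicate block. Without 1 library these were 0 to 1212 genes and 0 to 24 members. In TAC4L-KO against WT, members called were 2 without a filter, 14 under either scaling, 32 with all 12 libraries, 5 with a replicate block and 1 to 34 without 1 library. In TAC4-KO against WT they were 56 to 71 under every alternative run. Same-numbered libraries correlated from -0.427 to 0.268 in their deviations from the group means, over 0.1 in 4 of 18 pairs. Libraries with other numbers correlated from -0.434 to 0.462, over 0.1 in 14 of 36 pairs. No pairing by number was seen in these values, and whether libraries shared a plant or a batch was not tested. The shares of single members without 1 library, given beside them, were an alternative chosen after seeing the data.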
